A study of Arabidopsis thaliana with 12 samples.

Results

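The iron-storage genes described here are the ferritin genes FER1 (AT5G01600), FER2 (AT3G11050), FER3 (AT3G56090) and FER4 (AT2G40300) and the vacuolar iron transporter-like genes VTL1 (AT1G21140), VTL2 (AT1G76800) and VTL5 (AT3G25190). These 7 genes were taken by identifier from the 33602 genes of the deposited count table, and each of them was among the 20736 genes with enough counts to be tested. Transcripts were counted in whole 7-day Arabidopsis thaliana seedlings of 4 groups with 3 biological replicates each. The groups were gp1-2 seedlings with volatiles, gp1-2 seedlings without bacteria, wild-type Col-0 seedlings with volatiles and wild-type Col-0 seedlings without bacteria. The line gp1-2 is a single T-DNA insertion line in the Col-0 background (SAIL_209_D07), so a difference of genotype here is a difference between this line and Col-0. Volatiles came from the bacterium GB03, which shared only the air of a divided plate with the plants for 2 days from an age of 5 days. All groups, controls included, grew on half-strength Murashige and Skoog medium with 1% sucrose at 22 °C in 16 h of light and 8 h of darkness.

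Ferritins assemble into hollow shells that take up and store iron, and in plants they sit mainly in plastids. FER1, FER3 and FER4 serve vegetative tissue, FER4 also reaches mitochondria, and FER2 is known mainly from seeds. Their transcripts accumulate when iron is plentiful and fall when it is scarce, which makes them a common readout of iron sufficiency. The VTL proteins are relatives of the transporter VIT1, which moves iron into the vacuole, and transcripts of VTL1, VTL2 and VTL5 are known to be repressed under iron deficiency.

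Total counts ran from 11158051 to 25214934 per library, and every gp1-2 library was deeper than every Col-0 library. Total depth and genotype therefore cannot be told apart by comparing libraries, and a fit on counts thinned to the smallest library was run beside the main one. The labels name no disrupted locus, and the series title names a stearoyl-ACP desaturase. FAB2 (AT2G43710), a gene of that enzyme family, was at 550.8 to 745.6 CPM (normalised read counts scaled to library size) in the libraries labelled gp1-2, against 119.2 to 180.8 CPM in the Col-0 libraries, so this transcript gives no check of the gp1-2 label by its loss. Summed shoot markers (8 genes of photosynthesis) were at 14730 to 16710 CPM in gp1-2 with volatiles and 23560 to 24760 CPM in untreated gp1-2, against 35600 to 39790 CPM in Col-0 with volatiles and 37640 to 47090 CPM in untreated Col-0. Summed root markers (10 genes) were at 115.3 to 134.8 CPM in gp1-2 and 125.6 to 149.3 CPM in Col-0, and no marker of either list was at 0 throughout.

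The sequence before the start codon is shown first, because a G-box was found there in each ferritin gene. All sequences and positions are from RefSeq assembly TAIR10.1, and capitals mark the motif. In the 300 bases before the start codon, each of the 4 ferritin genes held 1 G-box, the palindrome CACGTG that bHLH and bZIP transcription factors bind, and none of the 3 VTL genes did. Of 27443 nuclear protein-coding genes, 6.28% held a G-box in the same window, so most genes lack one, as the 3 VTL genes did. The 4 ferritin genes are related in sequence, so their matches do not count as independent. The G-box began 143 bases before the start codon in FER1 and in FER2, 127 bases before it in FER3 and 149 bases before it in FER4.
FER1 G-box: atccaccctcCACGTGgatctcaatc
FER2 G-box: ctcctctttcCACGTGtccaacaaac
FER3 G-box: cgtatccatcCACGTGtcaacaatcc
FER4 G-box: ctcgtacgtaCACGTGtctctcatcc
These windows lie at chr5:229722-229747 (minus strand, FER1), chr3:3463498-3463523 (plus strand, FER2), chr3:20816096-20816121 (minus strand, FER3) and chr2:16833348-16833373 (minus strand, FER4). FER1 also held the iron-dependent regulatory sequence (IDRS, searched as CACGAGNCCNCCAC on both strands), an element known to hold FER1 down when iron is low. It was found in 1 of the 27443 genes, FER1 itself, where it began 190 bases before the start codon. The element is known from FER1, so a match there was given beforehand, and the count reflects how strict the pattern is. Looser matches in the other ferritin genes were not searched. A P1BS element (GNATATNC, both strands), the site of the phosphate-starvation factor PHR1, began 227 bases before the FER1 start codon and was held by 5.22% of all genes and by no other gene described here. Neither motif overlaps the G-box.
FER1 IDRS: ggatgtagCACGAGGCCGCCACacgcccct
FER1 P1BS: aacgtggatcGAATATCCtcacgttcac
The IDRS window lies at chr5:229763-229792 and the P1BS window at chr5:229804-229831, both on the minus strand. In this annotation the FER1 gene starts 457 bases before its start codon. Its 3 motifs therefore lie inside the annotated gene, before the start codon, as does the FER2 G-box. The G-boxes of FER3 and FER4 lie upstream of the annotated gene. These matches describe letters in a window and are no evidence of binding.

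Each ferritin gene has 8 exons, VTL5 has 2 and VTL1 and VTL2 have 1. FER1 lies on chromosome 5 (227953 to 230051), FER2 (3463477 to 3465506), FER3 (20813904 to 20816035) and VTL5 (9174398 to 9175866) on chromosome 3, FER4 on chromosome 2 (16831109 to 16833294), and VTL1 (7404328 to 7405426) and VTL2 (28829243 to 28830278) on chromosome 1. Among the ferritins, coding sequences were most alike between FER3 and FER4 (79.8% of aligned bases identical) and otherwise 71.5% to 73.2% identical. VTL1 and VTL2 were 77.1% identical. No stretch of 50 bases in the exons of any of the 7 genes occurred elsewhere in the genome, except 4 of 1050 in VTL1. FER4 shares 118 exon bases at one end with AT2G40290 and FER2 shares 8 with AT3G11040, and how reads in such overlaps were counted is not given in the sources used here. AT5G01595 on the opposite strand spans part of FER1 without sharing exon bases, and it had 60 to 103 reads per library where FER1 had at least 1248.

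FER1 stood apart between the genotypes in both conditions. Its normalised read counts, scaled by the TMM library factors, were 254.2, 226.3 and 225.2 CPM in gp1-2 with volatiles and 279.1, 246.8 and 290.2 CPM in untreated gp1-2. In Col-0 they were 91.71, 84.62 and 101.7 CPM with volatiles and 133.4, 89.65 and 119.3 CPM untreated. Every gp1-2 library lay above every Col-0 library. FER1 was thus higher in gp1-2 without bacteria, at a log2 fold change of 1.25 ± 0.13 (SE; edgeR quasi-likelihood test, adjusted p 1.4e-06), and with volatiles, at 1.34 ± 0.13 (edgeR adjusted p 4.5e-07). Leaving out 1 library at a time kept both calls, with values from 1.11 to 1.42. The shoot marker sum ran the other way, lower in gp1-2, and its part in the FER1 result was not tested. In whole seedlings, fewer cells of a type and less RNA per cell cannot be told apart. Within a genotype, volatiles gave no called change of FER1, with log2 fold changes of -0.21 (95% interval -0.49 to 0.07; edgeR adjusted p 0.22) in gp1-2 and -0.30 (-0.58 to -0.02; edgeR adjusted p 0.091) in Col-0. Without untreated Col-0 replicate 2, the lowest of its group, the Col-0 value was -0.46 and was called. With the replicate number as a block it was called too (-0.29, edgeR adjusted p 0.03).

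**Figure D1:**
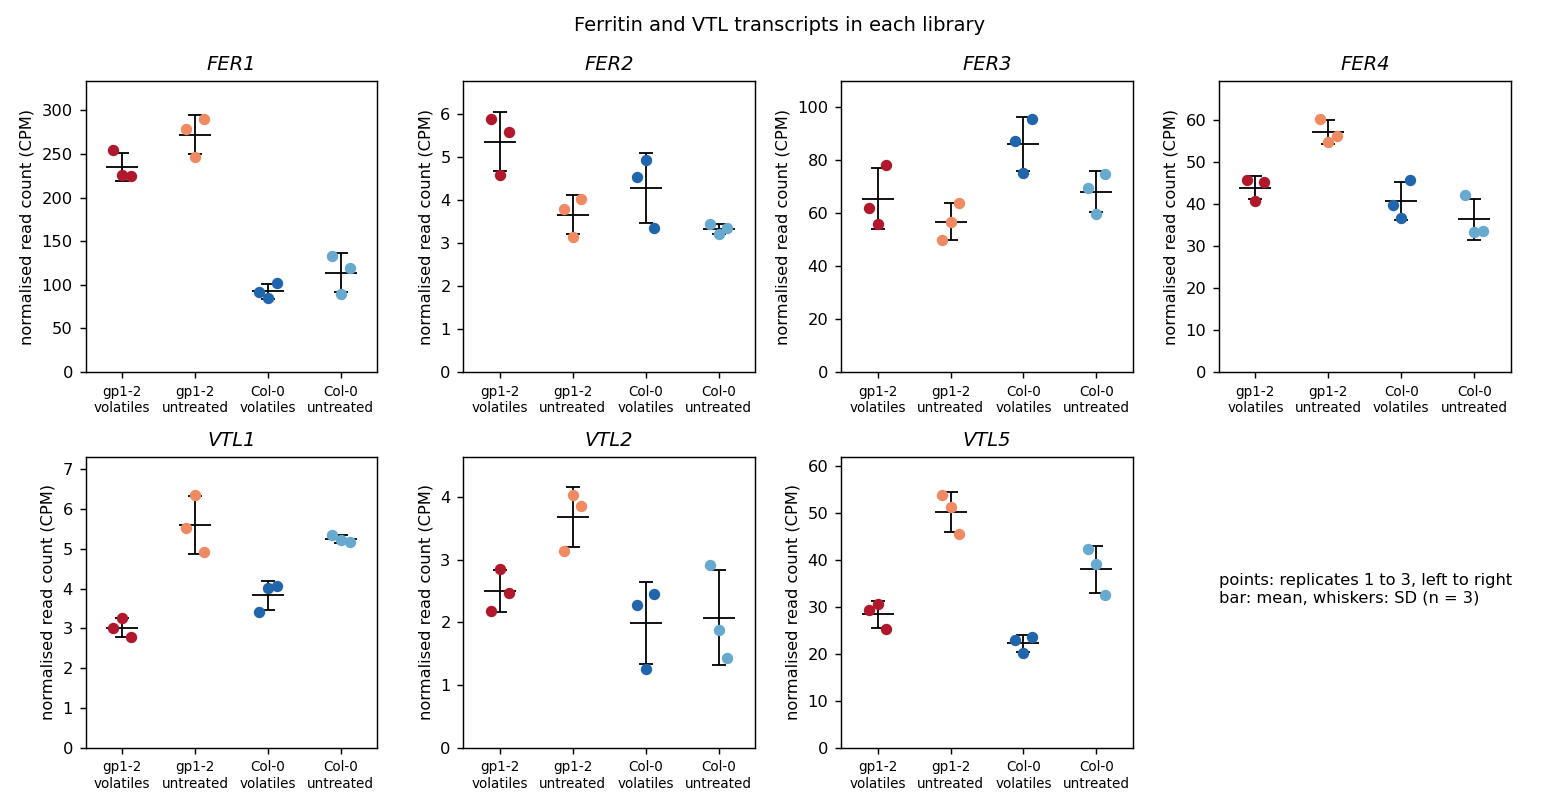
Normalised read counts (CPM, linear axes from 0) of the 4 ferritin and 3 VTL genes, with 1 point per library, the mean and the SD (n = 3) in each group. FER1 lies between 225.2 and 290.2 CPM in the gp1-2 libraries and between 84.62 and 133.4 CPM in the Col-0 libraries, while VTL5 is lower with volatiles in both genotypes.

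FER4, the ferritin of plastids and mitochondria, was higher in gp1-2 without bacteria and had no called difference of genotype with volatiles. It was at 45.88, 40.74 and 45.35 CPM in gp1-2 with volatiles and at 60.35, 54.89 and 56.35 CPM in untreated gp1-2. Col-0 seedlings had 39.85, 36.85 and 45.77 CPM with volatiles and 42.11, 33.46 and 33.75 CPM untreated. The untreated gp1-2 libraries lay above all others, and the remaining groups overlapped. The genotype difference without bacteria was 0.65 ± 0.11 on the log2 scale (edgeR adjusted p 0.00019), and with volatiles it was 0.11 (95% interval -0.12 to 0.34; edgeR adjusted p 0.44). With volatiles FER4 fell in gp1-2 (-0.38 ± 0.10, edgeR adjusted p 0.012), and in Col-0 its difference was 0.16 (-0.07 to 0.39; edgeR adjusted p 0.29). The gp1-2 call ended without untreated gp1-2 replicate 1 (-0.34) and without gp1-2 with volatiles replicate 2 (-0.33). The difference between these responses was -0.54 ± 0.15 and did not pass the adjustment (edgeR p 0.0027, adjusted p 0.071). It was called without untreated Col-0 replicate 1 (-0.66, edgeR adjusted p 0.025) and with the replicate number as a block (-0.54, edgeR adjusted p 0.023).

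FER3, a further vegetative ferritin, did not follow FER1. It was at 61.76, 56.02 and 78.19 CPM in gp1-2 with volatiles and at 49.71, 56.66 and 63.71 CPM in untreated gp1-2, against 87.37, 75.15 and 95.49 CPM in Col-0 with volatiles and 69.55, 59.81 and 74.86 CPM in untreated Col-0. The highest library of gp1-2 with volatiles, replicate 3, overlapped the range of Col-0 with volatiles, and the untreated groups overlapped as well. Replicate 3 was the highest in every group. With volatiles FER3 was lower in gp1-2, at -0.40 ± 0.13 on the log2 scale (edgeR adjusted p 0.025). That call ended without Col-0 with volatiles replicate 1 (-0.38) or 3 (-0.31) and without gp1-2 with volatiles replicate 1 (-0.36) or 2 (-0.30). Without bacteria the genotype difference was -0.26 (95% interval -0.56 to 0.04; edgeR adjusted p 0.15), and with the replicate number as a block it was called at the same size (-0.26, edgeR adjusted p 0.028). Volatiles gave 0.21 (-0.09 to 0.51; edgeR adjusted p 0.27) in gp1-2 and 0.34 (0.04 to 0.64; edgeR adjusted p 0.073) in Col-0. The Col-0 difference was called with the replicate number as a block (0.34, edgeR adjusted p 0.0086). It was also called without Col-0 with volatiles replicate 2 (0.43), without gp1-2 with volatiles replicate 3 (0.34) and without replicate 3 of every group (0.33).

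FER2, the seed ferritin, was the least abundant of the family. It had 5.889, 4.588 and 5.596 CPM in gp1-2 with volatiles and 3.803, 3.151 and 4.021 CPM in untreated gp1-2, from 57 to 145 reads per library. Col-0 had 4.539, 4.935 and 3.362 CPM with volatiles and 3.447, 3.218 and 3.346 CPM untreated, from 35 to 75 reads. With volatiles FER2 rose in gp1-2, where the groups did not overlap (log2 fold change 0.55 ± 0.17, edgeR adjusted p 0.022). The rise lost its call without untreated gp1-2 replicate 1 (0.58) or 2 (0.45) and without gp1-2 with volatiles replicate 1 (0.48) or 3 (0.51). In Col-0 the difference was 0.36 (95% interval -0.05 to 0.77; edgeR adjusted p 0.17), and the genotypes did not differ by a called amount (0.13 untreated and 0.33 with volatiles, edgeR adjusted p 0.63 and 0.14).

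VTL5, the most abundant of the 3 transporters, fell with volatiles in both genotypes. It was at 29.30, 30.65 and 25.16 CPM in gp1-2 with volatiles, against 53.84, 51.30 and 45.40 CPM in untreated gp1-2. The Col-0 libraries had 22.89, 20.14 and 23.60 CPM with volatiles, against 42.25, 39.16 and 32.41 CPM untreated. Within each genotype all treated libraries lay below all untreated ones. The fall was -0.82 ± 0.11 on the log2 scale in gp1-2 (edgeR adjusted p 5.3e-05) and -0.78 ± 0.12 in Col-0 (edgeR adjusted p 0.00017), and both calls held in every fit without 1 library (-0.89 to -0.69). The difference between the VTL5 responses of the genotypes was -0.05 (95% interval -0.39 to 0.29, edgeR adjusted p 0.94). Summed shoot markers were at 14730 to 16710 CPM in gp1-2 with volatiles against 23560 to 24760 CPM in untreated gp1-2. The Col-0 sums overlapped (35600 to 39790 CPM with volatiles against 37640 to 47090 CPM untreated). Of the 8 single markers, 7 were called lower and 1 higher with volatiles in gp1-2, and 5 lower and 1 higher in Col-0. The part of these markers in the fall of VTL5 was not tested.

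VTL5 was also higher in gp1-2 than in Col-0. The log2 fold change was 0.40 ± 0.11 without bacteria (edgeR adjusted p 0.011) and 0.35 ± 0.12 with volatiles (edgeR adjusted p 0.021). Without bacteria all gp1-2 libraries lay above all Col-0 libraries, and the call ended without untreated Col-0 replicate 3 (0.30). With volatiles the groups were apart too, and the call ended without Col-0 with volatiles replicate 2 (0.29) and without gp1-2 with volatiles replicate 1 (0.33) or 2 (0.29), as well as on thinned counts (0.31) and under upper-quartile normalization (0.27).

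VTL1, the close relative of VTL2, fell with volatiles in gp1-2. Its levels were 3.019, 3.257 and 2.779 CPM in gp1-2 with volatiles, against 5.511, 6.357 and 4.921 CPM in untreated gp1-2, from 61 to 115 reads per library, and the groups were apart. The log2 fold change was -0.89 ± 0.15 (edgeR adjusted p 0.00034). In Col-0 it was at 3.404, 4.014 and 4.073 CPM with volatiles, against 5.340, 5.230 and 5.162 CPM untreated. That fall (-0.45 ± 0.16, edgeR adjusted p 0.041) sat at the threshold: it lost its call in 14 of 21 alternatives, among them the omission of any one of the 6 Col-0 libraries (-0.50 to -0.38), of untreated gp1-2 replicate 1 (-0.45) or of gp1-2 with volatiles replicate 1 (-0.45), and the tests of DESeq2 (-0.47) and limma-voom (-0.46). Between the genotypes VTL1 differed by 0.09 without bacteria (95% interval -0.23 to 0.41; edgeR adjusted p 0.68) and by -0.35 with volatiles (-0.69 to -0.01; edgeR adjusted p 0.089).

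VTL2 was the weakest signal of the set, at 15 to 73 reads per library. It was at 2.178, 2.844 and 2.470 CPM in gp1-2 with volatiles and 3.141, 4.036 and 3.863 CPM in untreated gp1-2. Col-0 had 2.269, 1.250 and 2.457 CPM with volatiles and 2.907, 1.877 and 1.434 CPM untreated. Without bacteria the gp1-2 libraries lay above the Col-0 libraries (log2 fold change 0.80 ± 0.27, edgeR adjusted p 0.029). The call ended without untreated Col-0 replicate 2 (0.71) or 3 (0.62), without untreated gp1-2 replicate 2 (0.73) or 3 (0.76), without replicate 3 of every group (0.58) and under upper-quartile normalization (0.70). With volatiles the genotype difference was 0.33 (95% interval -0.25 to 0.91; edgeR adjusted p 0.35). Volatiles gave -0.56 in gp1-2 (-1.07 to -0.05; edgeR adjusted p 0.096) and -0.09 in Col-0 (-0.71 to 0.53; edgeR adjusted p 0.86).

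**Figure D2:**
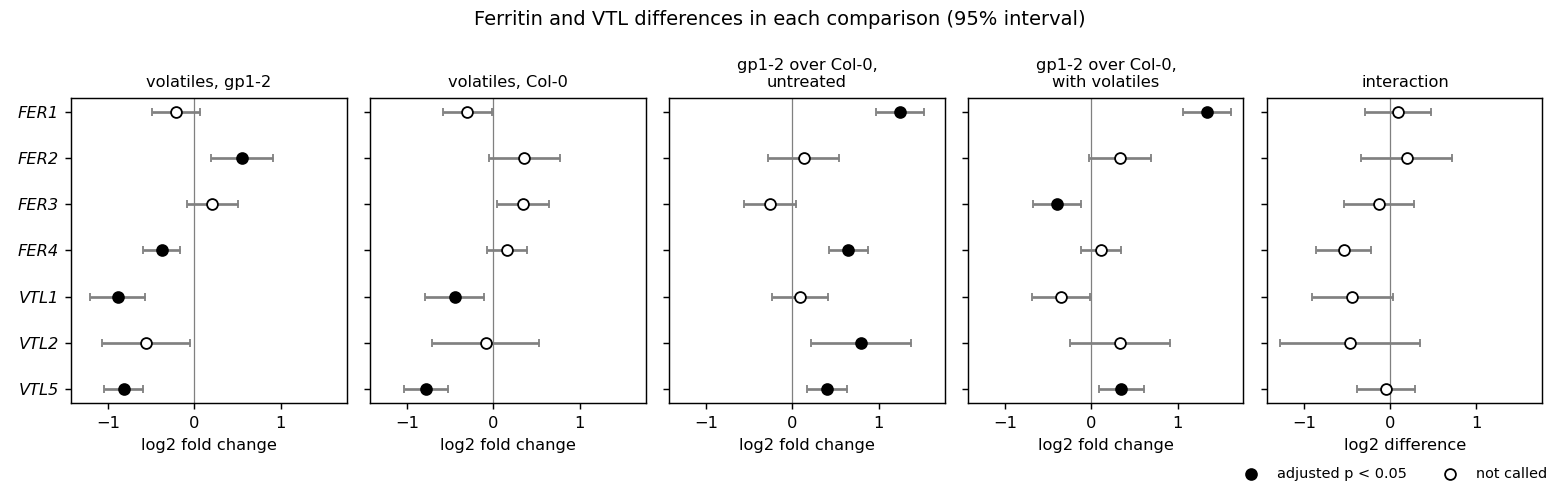
Log2 fold changes of the 7 genes with 95% intervals in the 4 comparisons and, at the right, the log2 difference between the responses to volatiles (gp1-2 minus Col-0). Filled points passed an adjusted p of 0.05 over all genes. FER1 lies at 1.25 and 1.34 in the genotype comparisons, and VTL5 at -0.82 and -0.78 in the comparisons of volatiles.

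Read against all genes, the genotype comparison without bacteria called 4 of the 7 genes, all higher in gp1-2 (FER1, FER4, VTL2 and VTL5), where 37.2% of tested genes were called, 20.0% higher and 17.2% lower. Upper-quartile normalization split the calls over all genes into 3406 higher and 4769 lower, against 4156 and 3567 in the main scaling. Without a replicate block, no member was called lower there by edgeR, DESeq2 or limma-voom, and 0 had an unadjusted edgeR p under 0.05 in that direction. With the replicate number as a block, edgeR called 5 of 7, FER3 being the member called lower. That fit called 8542 genes over all, against 7723 without the block. The comparison with volatiles called 3 of 7, FER1 and VTL5 higher and FER3 lower, beside 45.9% of all genes (22.6% higher and 23.3% lower), a share near that of the 7. The median log2 fold change of the 7 was 0.40 without bacteria and 0.33 with volatiles, beside -0.016 and -0.045 over all tested genes.

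Volatiles called 4 of the 7 genes in gp1-2, FER4, VTL1 and VTL5 lower and FER2 higher, beside 32.3% of all genes (14.7% higher and 17.6% lower). In Col-0 they called 2 of 7, VTL1 and VTL5, both lower, beside 30.1% of all genes (14.8% higher and 15.3% lower), so the count is near the background and rests for VTL1 on the threshold. Over all libraries and without a replicate block, none was called higher in Col-0 by edgeR, DESeq2 or limma-voom, and 1, FER3, had an unadjusted edgeR p under 0.05 in that direction. Without a replicate block the interaction called 0 of 7 with edgeR, DESeq2 and limma-voom, beside 2.80% of all genes with edgeR (1.48% higher and 1.32% lower), and 1 of the 7, FER4, had an unadjusted p under 0.05. The comparison of volatiles in gp1-2 shares its untreated gp1-2 libraries with the genotype comparison without bacteria, so a gene high in that group is high in one and low in the other.

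The make-up of the ferritin pool differed with genotype when levels were set per kilobase of annotated exon. Summed over the 4 genes, ferritin transcripts were at 256.5 ± 15.2 CPM per kb in gp1-2 with volatiles and 284.7 ± 19.0 CPM per kb in untreated gp1-2, against 168.9 ± 16.9 CPM per kb in Col-0 with volatiles and 165.6 ± 23.5 CPM per kb in untreated Col-0 (SD, n = 3). FER1 made up 64.6 ± 3.26% of the sum in gp1-2 with volatiles and 67.2 ± 1.47% in untreated gp1-2, against 38.6 ± 0.458% in Col-0 with volatiles and 48.2 ± 2.78% in untreated Col-0. FER3 held 19.9 ± 3.09% and 15.6 ± 1.77% in the same gp1-2 groups, against 39.8 ± 0.964% in Col-0 with volatiles and 32.3 ± 2.55% in untreated Col-0. In Col-0 with volatiles FER3 and FER1 were thus at nearly the same level per length, 67.35 ± 8.02 and 65.22 ± 6.04 CPM per kb. FER2 was the lowest in every group, at 2.907 to 4.667 CPM per kb on average. These shares are a description, with no test.

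The VTL pool was mostly VTL5 in every group. Its share of the summed level per kb was 84.3 ± 1.14% in gp1-2 with volatiles, 85.0 ± 1.55% in untreated gp1-2, 80.1 ± 0.862% in Col-0 with volatiles and 84.6 ± 0.764% in untreated Col-0 (SD, n = 3). The sum was 33.0 ± 3.13 CPM per kb in gp1-2 with volatiles, against 57.89 ± 4.46 in untreated gp1-2, and 27.2 ± 2.35 CPM per kb in Col-0 with volatiles, against 44.0 ± 5.68 in untreated Col-0.

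**Figure D3:**
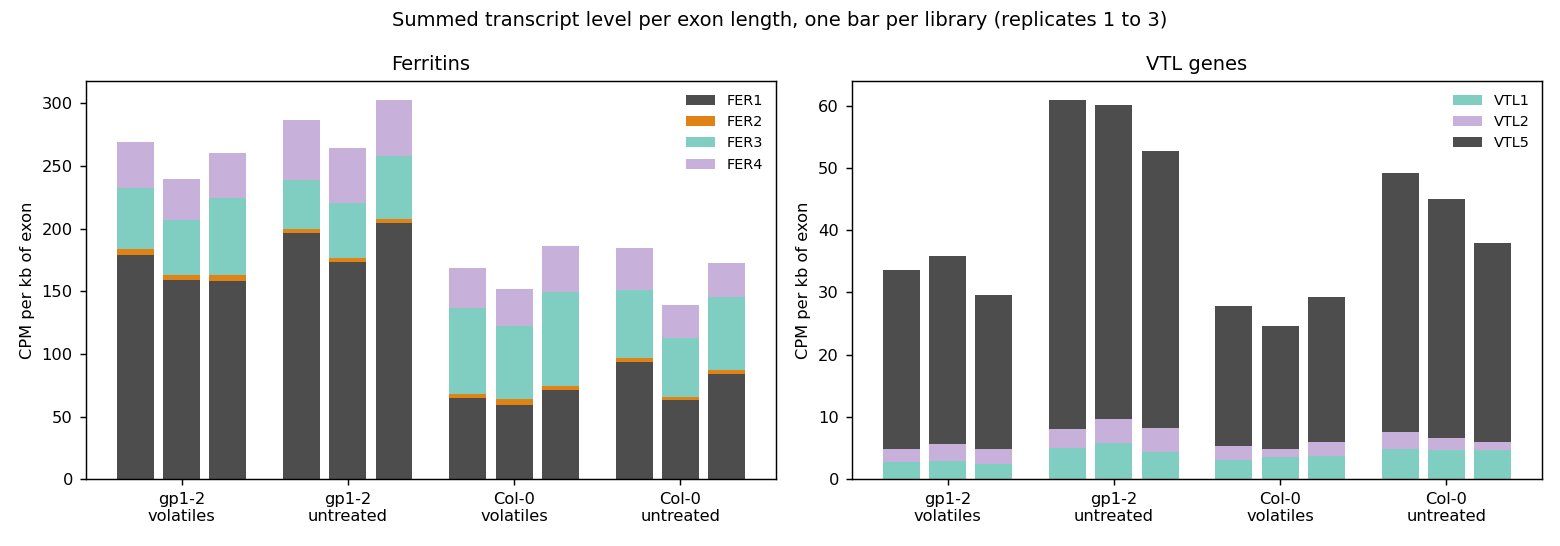
Summed level of the ferritins (left) and of the VTL genes (right) in CPM per kilobase of exon, with 1 stacked bar per library. The FER1 part of the ferritin bars averages 64.6% and 67.2% in the gp1-2 groups and 38.6% and 48.2% in the Col-0 groups, and the VTL bars are shorter with volatiles in both genotypes.

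Ordered by mean level, the groups took one order for FER1 and VTL2 and other orders for the other genes. FER1 was highest in untreated gp1-2, then gp1-2 with volatiles, whose ranges overlapped, then untreated Col-0 and Col-0 with volatiles, which overlapped each other. FER3 was highest in Col-0 with volatiles, and the other 3 groups overlapped in sequence. VTL5 was highest in untreated gp1-2, then untreated Col-0, gp1-2 with volatiles and Col-0 with volatiles, with no overlap between neighbours. For FER4 and VTL2 only untreated gp1-2 stood clear of its neighbour. VTL1 was highest in the untreated groups, which overlapped, and then separately in Col-0 with volatiles and gp1-2 with volatiles. FER2 overlapped between all neighbours.

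Of the remaining genes of vacuolar iron transport, VIT1 had 1 to 5 reads in the 3 libraries of a group together, and AT3G43630 and AT3G43660, annotated as VIT family genes, had no read in any library, so none of these was tested. NRAMP3, which moves iron out of the vacuole, was at 12.7 CPM in gp1-2 with volatiles and at 17.8 CPM in untreated gp1-2, against 12.6 and 9.70 CPM in the matching Col-0 groups. Without bacteria it was higher in gp1-2, by 0.89 on the log2 scale (edgeR adjusted p 2.4e-05), and it fell with volatiles in gp1-2 (-0.49, edgeR adjusted p 0.0035) while it rose in Col-0 (0.38, edgeR adjusted p 0.029). NRAMP4, its partner in that role, rose with volatiles in Col-0 (0.23, edgeR adjusted p 0.031) and had 0.10 in gp1-2 (edgeR adjusted p 0.33). FPN2, a ferroportin-family transporter that loads metals into the vacuole, fell in both (-1.11 and -1.20, edgeR adjusted p 0.0088 and 0.011).

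Genes of iron uptake and long-distance transport were mostly lower in gp1-2, the opposite direction to FER1. Of 13 tested genes, 9 were lower and 1 was higher without bacteria (median log2 fold change -1.22), and 10 were lower and 1 higher with volatiles (median -0.99), beside 17.2% and 23.3% of all tested genes called lower in these comparisons. OPT3, the phloem iron transporter, was at 81.7 CPM in gp1-2 with volatiles and 68.2 CPM in untreated gp1-2, against 133 and 168 CPM in the matching Col-0 groups. Its log2 fold changes were -1.30 without bacteria and -0.70 with volatiles (edgeR adjusted p 2.3e-07 and 8.6e-05). The member called higher was NAS3, a nicotianamine synthase (2.91 and 2.05, edgeR adjusted p 7.2e-06 and 0.00012). NAS3 had few reads in Col-0, 34 in the untreated libraries together and 44 in those with volatiles, against 349 and 273 in the matching gp1-2 groups. The uptake transporter IRT1 and AT2G30766 were lower in gp1-2 in both conditions (-3.54 and -3.76 for IRT1, -5.00 and -2.71 for AT2G30766). The untreated values rest on few reads in gp1-2. IRT1 had 6 reads in the untreated gp1-2 libraries together against 54 in untreated Col-0 (SE 0.87), and AT2G30766 had 42 against 1008.

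Among 15 iron-deficiency regulators, 6 were lower and 1 was higher in gp1-2 without bacteria, and 7 were lower and 1 higher with volatiles, with medians of -0.26 and -0.17. Counted in either direction, 7 and 8 of the 15 were called, beside 37.2% and 45.9% of all genes. The lower ones included the subgroup Ib factors bHLH38, bHLH39, bHLH100 and bHLH101, which act with FIT, and PYE, a bHLH repressor of storage and transport genes (log2 fold change -0.97 without bacteria and -0.65 with volatiles, edgeR adjusted p 0.00014 and 0.0023). No read of bHLH100 was found in untreated gp1-2, against 57 in untreated Col-0. ILR3, which with PYE is known to repress ferritin genes under iron deficiency, was at 82.1 and 84.1 CPM in the gp1-2 groups with and without volatiles, against 69.5 and 73.6 CPM in the matching Col-0 groups, with no called difference of genotype (edgeR adjusted p 0.05 with volatiles and 0.14 without). BTS, the iron-sensing ubiquitin ligase, differed by -0.75 between the untreated genotypes, lower in gp1-2 (edgeR adjusted p 0.00081), and by -0.17 with volatiles (edgeR adjusted p 0.37).

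With volatiles, 7 of the 13 uptake and transport genes rose in gp1-2 (median 0.41), and 7 rose and 3 fell in Col-0 (median 0.37), beside 14.7% and 14.8% of all genes called higher. IRT1 was at 1.33 CPM in gp1-2 with volatiles against 0.110 CPM in untreated gp1-2, from 88 and 6 reads per group. In Col-0 it was at 17.8 CPM with volatiles against 1.34 CPM untreated, from 812 and 54 reads per group. NAS2, a nicotianamine synthase, rose by 0.98 in gp1-2 and by 1.08 in Col-0 on the log2 scale (edgeR adjusted p 7.0e-05 and 3.6e-05). Of the 15 regulators, 3 fell in gp1-2, while in Col-0 2 rose and 3 fell. These counts are near the shares of all genes called lower, 17.6% in gp1-2 and 15.3% in Col-0. bHLH101 fell in both genotypes (-3.42 and -2.33, edgeR adjusted p 0.0015 and 0.00097), with 6 reads in the libraries of gp1-2 with volatiles together.

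Plastid and mitochondrial iron genes did not move as one group. Of 11 organelle iron handling genes, 5 were lower and 1 higher in gp1-2 without bacteria, beside 17.2% and 20.0% of all genes. With volatiles 5 fell in gp1-2 and 4 in Col-0, beside 17.6% and 15.3% of all genes called lower. The ferric reductases FRO6, of the leaf cell surface, and FRO7, of the chloroplast, fell with volatiles in gp1-2 (-4.14 and -2.74, edgeR adjusted p 1.3e-07 and 2.1e-06) and in Col-0 (-2.57 and -2.72, edgeR adjusted p 1.2e-06 and 2.8e-06). YSL6, which exports iron from plastids, fell in both as well (-0.45 and -0.53, edgeR adjusted p 0.0029 and 0.001). Of the 8 shoot markers, 7 fell with volatiles in gp1-2 and 5 in Col-0, LHCB1.1 rose in both (0.57 and 1.01), and their part in these values was not tested. NEET, an iron-sulphur protein, had no called difference. Of 10 plastid iron-sulphur assembly genes, 5 fell with volatiles in gp1-2, and 1 rose and 1 fell in Col-0. Between the genotypes without bacteria, 3 of these 10 were lower in gp1-2 and 1, ABCI8, was higher. With volatiles 6 of the 10 were lower in gp1-2 and 0 higher, beside 23.3% and 22.6% of all genes. ABCI8, also called SUFB, was highest in untreated gp1-2, as FER4 was: it had 135 CPM in gp1-2 with volatiles and 207 CPM in untreated gp1-2, against 145 and 143 CPM in the matching Col-0 groups, with a higher level in gp1-2 without bacteria (0.53, edgeR adjusted p 0.0026).

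Iron enzymes that handle reactive oxygen were mostly higher in untreated gp1-2, where 5 of 7 were called higher and 2 lower (median 0.47), beside 20.0% and 17.2% of all genes. With volatiles 3 were higher and 1 lower (median 0.08), beside 45.9% of all genes called in that comparison. APX1, the cytosolic ascorbate peroxidase, was higher in gp1-2 without bacteria and with volatiles (0.77 and 0.87, edgeR adjusted p 0.00019 and 4.0e-05), as was the catalase CAT3 (0.82 and 0.39, edgeR adjusted p 1.6e-06 and 0.0013). Of the 3 further regulators of ferritin genes, TIC, PHR1 and PHL1 had genotype differences of -0.24, 0.07 and 0.21 without bacteria, none of them called, and PHL1 was higher in gp1-2 with volatiles (0.59, edgeR adjusted p 0.0029). All 8 shoot markers were lower in gp1-2 in both conditions (medians -0.80 and -1.36), while the 10 root markers had medians of -0.16 and 0.01, with 1 call, COBL9, lower in gp1-2 with volatiles.

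**Figure D4:**
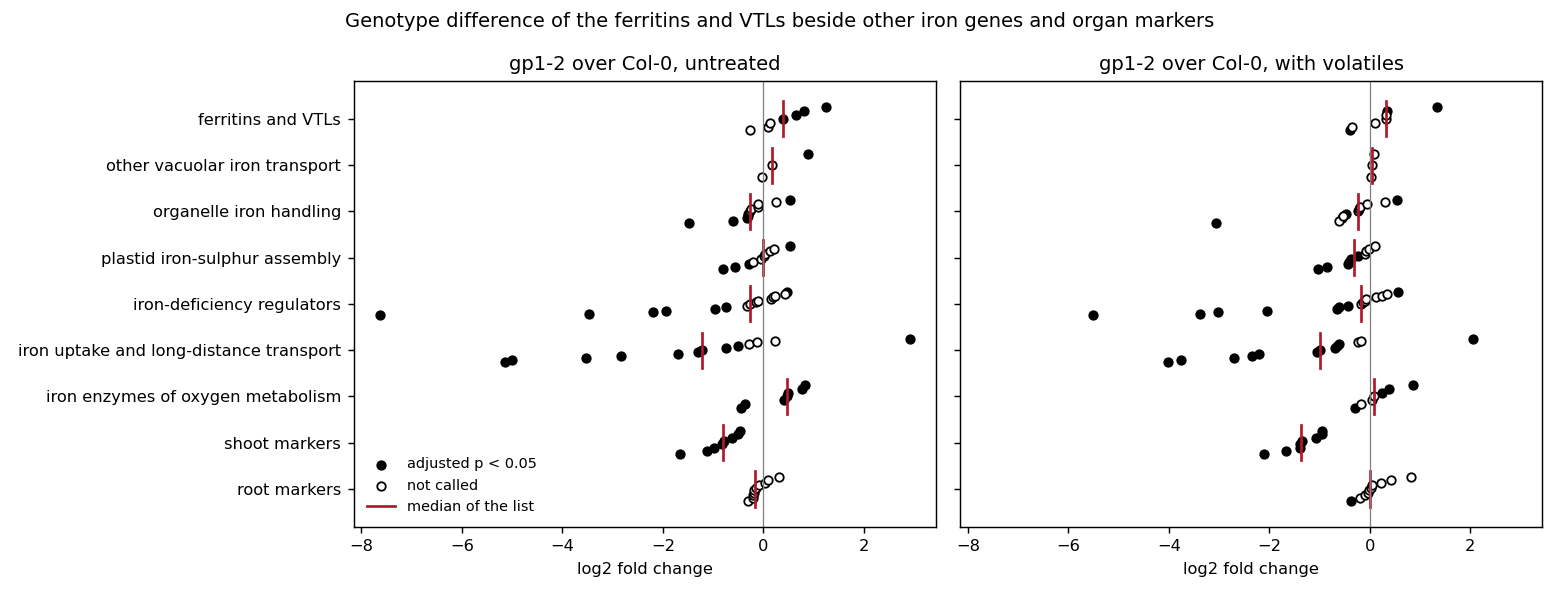
Log2 fold change of genotype (gp1-2 over Col-0) for the ferritins and VTLs and for 8 other lists, without bacteria (left) and with volatiles (right). Filled points passed an adjusted p of 0.05, and red lines are list medians. Uptake and transport genes have medians of -1.22 and -0.99, against 0.40 and 0.33 for the ferritins and VTLs. The fitted value of bHLH100, the leftmost point, rests on groups with few or no reads.

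The genes most like each ferritin or VTL gene were found by the root mean square difference of centred log2 CPM over the 12 libraries, among 16093 genes with a mean of at least 5 CPM. Nearest to FER1 were SOUL-1 (0.139 log2 units), AT2G28940 and P58IPK (0.154 each), where FER1 itself varied by 0.681. SOUL-1 is annotated as a haem-binding protein. FER3 was nearest to AT3G11250 (0.098), AT4G13170 and AT3G23390 (0.10 each), all annotated as ribosomal proteins. For FER2 the nearest were AT2G45300 (0.139), PPC1 (0.145) and AT5G43150 (0.150), and for FER4 they were AT1G21050 (0.097), AT5G03560 (0.102) and AT5G54855 (0.118). VTL1 was nearest to CCD1 (0.085), AT3G62650 (0.086) and AT1G21920 (0.094), and VTL5 to AT1G63360 (0.106), ATG8F (0.107) and AT5G59540 (0.111). VTL2, with few reads, had no neighbour closer than AT4G16008 (0.233), followed by ATGP4 (0.240) and MAKR5 (0.252). Within the set, the nearest pair was FER4 and VTL2 (0.292), followed by VTL1 and VTL5 (0.303), and FER1 was 0.479 from its nearest fellow, VTL2. The libraries share genotype, treatment and depth, so these distances are a description.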

How the data were processed

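RNA of whole seedlings was sequenced, and the authors deposited 1 table of raw read counts per gene for 12 libraries, each matched to its group by its title. The submitters' processing notes name Trimmomatic 0.36, HISAT2 2.1.0, HTSeq 0.9.1 and the build TAIR10. The annotation release, strand setting and treatment of shared reads are not given in the sources used here. Genes were filtered with filterByExpr, scaled by TMM and tested with edgeR 4.0.16 (quasi-likelihood F test, R 4.3.3), with 1 coefficient per group fitted to all 12 libraries. P-values were adjusted by Benjamini-Hochberg over 20736 genes, and genes were called under 0.05. The SE is the log2 fold change divided by the root of F, and the 95% intervals use 15 degrees of freedom. The common biological coefficient of variation was 0.109. Counting error is largest for VTL1, VTL2 and FER2, which had few reads. Library totals were 11158051 to 25214934. CPM per kb used merged exon lengths of RefSeq TAIR10.1, which also gave symbols, positions and sequences, joined to the table by gene identifier. The steps were tested on simulated data.

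Named genes were the 7 ferritin and VTL genes, the genes of 9 further lists (83 genes) and the 3 genes most like each of the 7. The 7 genes were defined by identifier and not by a measured threshold, but they and the lists were chosen with earlier results of these data known. Every pair of replicates differed by more than sampling noise, with a chi-square of 2.58 to 15.8 for each degree of freedom. Each library counted as a separate replicate, though this spread cannot show whether libraries were grown or prepared separately. Replicate 3 was the most distant in every group. The labels do not say whether libraries of one number were grown or handled together. Deviations of same-numbered libraries correlated above 0.1 for all 3 pairs of the untreated genotypes (0.113 to 0.218) and not for all 3 pairs of any other comparison tested here. Alternatives were RLE and upper-quartile scaling, 2 other filters, DESeq2 1.42.0, limma 3.58.1 with voom, a replicate block, thinned counts, a minimum fold and omitted libraries.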

Additional observations from a re-analysis of the deposited data

Results flagged for a closer look

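Without a replicate block, 0 of the 7 ferritin and VTL genes had a called difference between the genotypes in the response to volatiles. In the other iron lists 5 genes did (edgeR quasi-likelihood test of the interaction, adjusted p under 0.05), beside 2.80% of all tested genes. They were 1 of 3 tested genes of other vacuolar iron transport, 1 of 11 of organelle iron handling, and 2 higher and 1 lower of 13 of uptake and transport. The remaining iron lists, with 15, 10, 7 and 3 tested genes, had 0. For NRAMP3 the response in gp1-2 minus that in Col-0 was -0.87 on the log2 scale (edgeR adjusted p 0.011). For FRO6 it was -1.57 (edgeR adjusted p 0.04) and for FRO2 it was -3.73 ± 0.78 (SE; edgeR adjusted p 0.018). For AT2G30766 it was 2.29 (edgeR adjusted p 0.0029) and for ZIF1, a vacuolar nicotianamine transporter, 0.71 (edgeR adjusted p 0.026). The FRO2 value rests on few reads. FRO2 was at 0.560 CPM in gp1-2 with volatiles against 0.800 CPM in untreated gp1-2, from 37 and 44 reads per group. In Col-0 FRO2 was at 9.01 ± 5.63 CPM (SD) with volatiles against 1.01 CPM untreated, from 410 and 39 reads per group.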

How the results depend on the processing

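Over 22 alternatives, 755 values were computed for the 35 results of single ferritin and VTL genes, of which 688 kept direction and side of the threshold, 47 lost and 10 gained a call, and 10 changed sign. No value that changed sign was called in either fit. Thinning gave 0.01 for VTL1 between genotypes with volatiles and 0.18 for VTL2 with volatiles in Col-0, and the interaction of VTL5 was 0.11 without replicate 3 of every group. Omitting libraries gave ranges across 0 for FER1 (interaction, -0.04 to 0.23), VTL1 (genotype untreated, -0.01 to 0.18), VTL2 (volatiles in Col-0, -0.44 to 0.24) and VTL5 (interaction, -0.13 to 0.11).

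Requiring a log2 fold change of at least 1 ended every call but that of FER1 with volatiles: it left 0 of the 7 genes with volatiles in gp1-2, 0 with volatiles in Col-0, 0 between untreated genotypes and 1 between genotypes with volatiles. Over all genes it left 372, 350, 1050 and 1649 in these comparisons and 14 for the interaction. With volatiles in Col-0 edgeR with TMM called 2 of 7, and upper-quartile scaling, no filter, a mean CPM of at least 5, DESeq2 and limma-voom each called 1. A mean CPM of at least 5 left 2 of 7 with volatiles in gp1-2, because FER2, VTL1 and VTL2 were then not tested. DESeq2 called 941 genes for the interaction, against 580. Upper-quartile scaling moved the median of all genes to -0.106 between untreated genotypes and -0.126 with volatiles. It ended the genotype calls of VTL2 without bacteria (0.70) and of VTL5 with volatiles (0.27), and it gained that of VTL1 with volatiles (-0.43).

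The labels do not say whether same-numbered replicates were paired. Over all pairs of groups, correlations of their deviations ran from -0.032 to 0.253, 9 of 18 above 0.1, and 11 of 12 libraries correlated best with their own number, a hint from the data alone. With the replicate block 4 of 7 genes were called with volatiles in Col-0, beside 7138 genes over all, against 6245 without it. Gained there were FER3 higher (0.34, edgeR adjusted p 0.0086) and FER1 lower (-0.29, edgeR adjusted p 0.03). Between untreated genotypes the block called 5 of 7 (FER3 lower as well, -0.26), beside 8542 genes over all, against 7723 without it. For the interaction it called 1 of 7 (FER4, -0.54, edgeR adjusted p 0.023), beside 1038 genes over all, against 580 without it. Calls thus rose over all genes too. The block changed no other call of the 7 genes.

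Leaving out 1 library, or replicate 3 throughout, gave 2 to 4 calls among the 7 genes with volatiles in gp1-2, 1 to 3 with volatiles in Col-0, 2 to 4 between untreated genotypes, 1 to 3 with volatiles and 0 to 1 for the interaction. Over all genes these were 4893 to 7451, 4636 to 6516, 6650 to 8166, 8304 to 9749 and 329 to 831. Depth limits VTL2 most, at 15 to 73 reads per library.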
